A study of Mus musculus with 12 samples.

Results

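This account describes 9 genes of the contractile apparatus of smooth muscle cells and myofibroblasts, in the myocardium of mice after a myocardial infarction (MI) or a sham operation. The genes are Acta2, Tagln, Cnn1, Cnn2, Myh11, Myl9, Smtn, Tpm2 and Lmod1. They were taken by name from the 33641 gene symbols of the deposited table, and all 9 passed the filter on low values that 13158 genes passed. RNA was sequenced from the heart muscle of male wild-type C57BL/6 mice, given as about 10 weeks old in the treatment protocol and about 16 weeks old in the sample labels. From 2 weeks after surgery every mouse received a weekly intraperitoneal injection for 6 weeks, and the heart muscle was collected 24 hours after the last of these. The 12 libraries form 4 groups of 3: sham with vehicle, sham with prednisone at 1 mg/kg given at lights-on, MI with vehicle, and MI with the same prednisone. Prednisone is a synthetic glucocorticoid. The labels do not say which region of the heart was taken or how far it lay from the infarct. The comparisons ask what infarction changed under each treatment, what weekly prednisone changed after each operation, and whether those drug effects differed.

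Smooth muscle cells contract when myosin, switched on by phosphorylation of its regulatory light chain, pulls on actin filaments that carry tropomyosin, calponin and smoothelin. In the heart these genes are expressed in the walls of coronary vessels. After an infarct, fibroblasts in the scar take on a contractile state, the myofibroblast, whose classical marker is smooth muscle actin. Many of the genes are controlled by serum response factor (SRF) and its partners of the myocardin family, which bind a short DNA element called the CArG box.

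The values are TPM, abundances per length of transcript scaled to a fixed total, and so shares of a library, and the number of reads behind them is not known. The MI vehicle library of replicate 3 stood apart from the other 11. In it 14307 genes reached 1 TPM, against 11690 to 12772 in the others, and mitochondrial genes with their nuclear copies and globins took 38.8% of the TPM, against 46.7% to 58.1%. Its median-ratio size factor, the factor by which its typical gene exceeded that of the other libraries, was 1.69, against 0.864 to 1.13. The median of all genes was 0.39 higher on the log2(TPM + 1) scale in MI vehicle than in sham vehicle, and with prednisone in MI it changed by -0.41. Without that library these medians were 0.19 and -0.22. Counts of calls are therefore also given after median-ratio rescaling. Cardiomyocyte markers summed to between 35508 and 58249 TPM per library over 10 genes, all of them detected, and the lowest sum was in the same MI vehicle library. All 7 vascular smooth muscle markers chosen to check the tissue were detected in every group, at a summed 16.6 to 48.6 TPM. Kcnmb1 was below 1 TPM in both sham groups and in MI vehicle, and Itga8 in MI prednisone. In such bulk tissue, fewer cells of a type and less RNA per cell cannot be told apart.

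By mean TPM over all 12 libraries, which compares genes per length of transcript, the order of the levels was Smtn at 63.0, Acta2 at 51.9, Myl9 at 46.8, Tagln at 33.1, Tpm2 at 25.4, Cnn2 at 25.2, Myh11 at 6.21, Cnn1 at 3.29 and Lmod1 at 1.32 TPM. Tpm2 exceeded Cnn2 in 6 of 12 libraries and Acta2 exceeded Myl9 in 8 of 12, so the order of these neighbours was not the same throughout. Acta2 was above Myl9 in every sham library and below it in every MI prednisone library. Tpm2 was below Cnn2 in every MI vehicle library and above it in every MI prednisone library. Smtn exceeded Acta2 in 10 of 12. Each of the other genes exceeded the next one in at least 11 of 12 libraries. Smtn was the most abundant member in both sham groups and in MI prednisone and ranked 4 in MI vehicle, where Acta2 ranked 1. The Smtn sum includes a transcript without coding sequence, Smtn-206, at a mean of 18.3 TPM in MI prednisone. The 9 genes together took 204, 221 and 205 TPM in sham vehicle, 214, 213 and 218 TPM in sham prednisone, 247, 329 and 420 TPM in MI vehicle, and 257, 302 and 244 TPM in MI prednisone. On the TPM scale every infarcted heart lay above every sham heart in this sum, and the highest value was in the library that stood apart. The lowest MI vehicle sum, 247 TPM in replicate 1, came with a size factor of 1.05, and sham vehicle replicate 3 had one of 0.864. Whether the sums stay apart after rescaling was not tested.

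**Figure D1:**
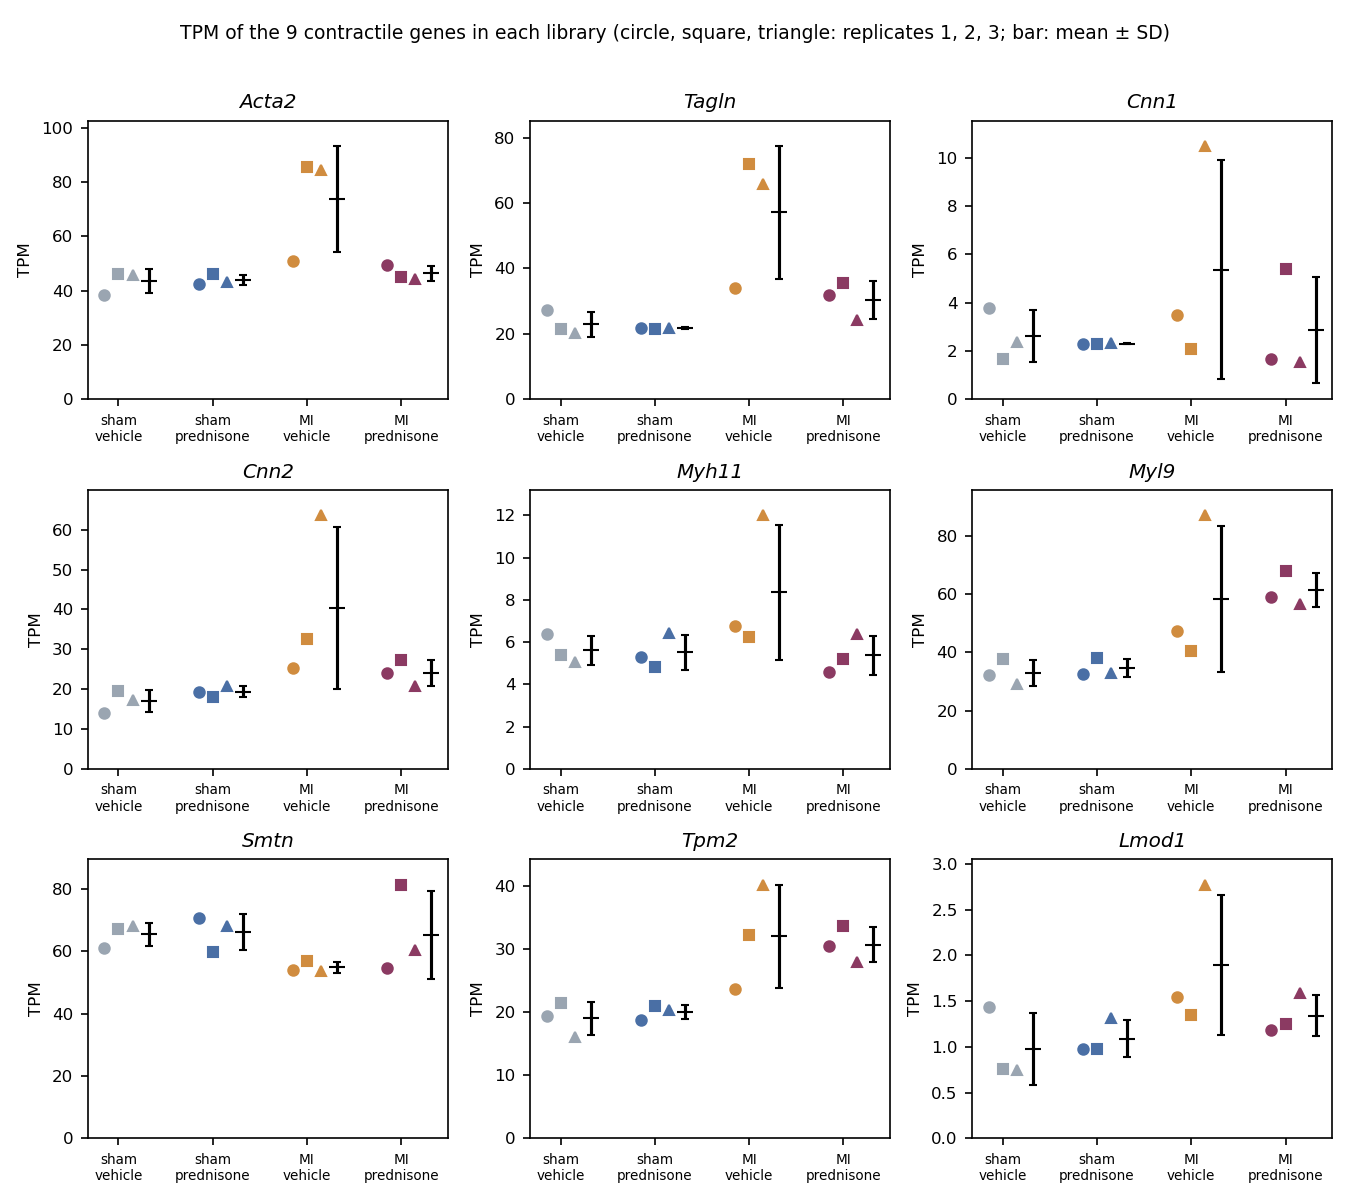
TPM of each of the 9 genes (y axis of each panel, starting at 0) in the 12 libraries, by group. Circles, squares and triangles are replicates 1, 2 and 3, and the black bar is the mean ± SD (n = 3). The MI vehicle group is the most spread, and 6 of the 9 genes reach their highest value in its replicate 3.

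With vehicle, infarction raised 4 of the 9 genes, Acta2, Tagln, Cnn2 and Tpm2, by 0.70 to 1.22 on the log2(TPM + 1) scale, and none was called lower. A call is a Benjamini-Hochberg adjusted p under 0.05 over all genes in limma. Of all genes tested, 15.1% were called higher and 0.904% lower in this comparison. The members' median change was 0.70, against 0.39 over all genes.

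Positions are those of GENCODE M21 (GRCm38). Among the actin filament components, Acta2 (chr19:34241090-34255590, minus strand) encodes smooth muscle alpha-actin. Its TPM was 38.3, 46.1 and 45.9 in sham vehicle and 51.0, 85.6 and 84.4 in MI vehicle. All 3 infarcted hearts lay above the sham hearts, replicate 1 only narrowly. The log2 change was 0.72 ± 0.17 (SE, limma adjusted p = 0.0255, n = 3 per group), a 1.70-fold ratio of the means. Tpm2 (chr4:43514711-43523765, minus strand) encodes beta-tropomyosin, which lies along the actin filament. It measured 19.4, 21.4 and 16.1 TPM in sham vehicle and 23.7, 32.2 and 40.1 TPM in MI vehicle. The groups did not overlap, and the log2 change was 0.70 ± 0.17 (limma adjusted p = 0.0262). Lmod1 (chr1:135324807-135368065, plus strand) encodes leiomodin 1, a protein that starts actin filaments in smooth muscle. It lay at 1.43, 0.756 and 0.751 TPM in sham vehicle and at 1.54, 1.35 and 2.77 TPM in MI vehicle. These ranges overlapped, and the log2 change of 0.53 ± 0.21 was not called (limma adjusted p = 0.0921).

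The actin-binding proteins moved unequally. Tagln (chr9:45929619-45936058, minus strand) encodes transgelin (SM22-alpha), an actin cross-linking protein and early marker of smooth muscle differentiation. It rose from 27.3, 21.5 and 20.2 TPM in sham vehicle to 34.0, 71.8 and 65.8 TPM in MI vehicle. Every infarcted heart was above every sham heart, and the log2 change of 1.22 ± 0.25 was the largest of the 9 (limma adjusted p = 0.0149). Calponins bind actin and damp the myosin motor. Cnn2 (chr10:79988584-79996062, plus strand), calponin 2, is also made outside smooth muscle, in fibroblasts and myeloid cells among others. It measured 14.1, 19.6 and 17.2 TPM in sham vehicle and 25.2, 32.5 and 63.6 TPM in MI vehicle. The groups did not overlap, and the log2 change was 1.11 ± 0.27 (limma adjusted p = 0.0250). Cnn1 (chr9:22099216-22109630, plus strand), the smooth muscle calponin, gave 3.80, 1.68 and 2.36 TPM in sham vehicle and 3.48, 2.08 and 10.5 TPM in MI vehicle. Only the library that stood apart was high, and the log2 change of 0.63 ± 0.46 was not called (limma adjusted p = 0.290).

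Smtn (chr11:3517523-3540612, minus strand), smoothelin, is found with the filaments of contractile smooth muscle. Summed over its transcripts, which did not all move alike, it ran opposite to the others. Smtn measured 61.0, 67.0 and 68.2 TPM in sham vehicle and 54.0, 56.8 and 53.7 TPM in MI vehicle. It was the only member with all infarcted hearts below all sham hearts, a separation that 4.17% of all genes showed. The log2 change of -0.25 ± 0.14 was not called (limma adjusted p = 0.175). Relative to the median gene, the Smtn change was -0.64.

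Neither of the motor subunits was called. Myl9 (chr2:156775420-156781658, plus strand) encodes the regulatory light chain of smooth muscle myosin, the subunit whose phosphorylation starts contraction. It was at 32.1, 37.8 and 29.1 TPM in sham vehicle and at 47.4, 40.4 and 87.1 TPM in MI vehicle. The groups did not overlap, and the log2 change of 0.73 ± 0.23 just missed the threshold (limma adjusted p = 0.0522). Myh11 (chr16:14194535-14291372, minus strand), the heavy chain of that myosin and the most restricted smooth muscle marker of the 9, had 6.38, 5.38 and 5.07 TPM in sham vehicle and 6.77, 6.24 and 12 TPM in MI vehicle. The ranges overlapped, and the log2 change was 0.45 ± 0.22 (limma adjusted p = 0.131). In all, 5 of the 9 genes had every MI vehicle library above every sham vehicle library, against 40.8% of all genes. After rescaling 3 of the 9 did, against 15.1% of all genes.

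These calls depended on the scale and on single libraries. After rescaling, 2 of 9 were called, Cnn2 higher by 0.66 (limma adjusted p = 0.0329) and Smtn changed by -0.70 (limma adjusted p = 0.0452), where 6.46% of all genes were called, and Acta2 (0.27), Tagln (0.77) and Tpm2 (0.26) were not. On the TPM scale without MI vehicle replicate 3, Tagln and Cnn2 were the 2 calls. Without MI vehicle replicate 2 there were 3, with Myl9 in place of Acta2 and Tpm2. Without sham vehicle replicate 1 there was 1 call, Tagln, and without sham vehicle replicate 3 there were 0. Calls over all genes fell as well, from 2100 to 168 and 120 in these 2 fits. The log2 changes in them were 0.63 and 0.76 for Acta2 and 1.34 and 1.13 for Tagln. With mitochondrial genes, their copies and globins removed from the total, Acta2 was not called (0.48, limma adjusted p = 0.0605) and Smtn was called lower (-0.49, limma adjusted p = 0.0480).

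Under prednisone, infarction raised Myl9 and Tpm2, and no member was called lower. Of all genes, 2.73% were called higher and 14.1% lower, and the median change was 0.17 over the members against -0.06 over all genes. Myl9 rose from 32.7, 38.2 and 33.0 TPM in sham prednisone to 59.1, 67.9 and 56.8 TPM in MI prednisone. Its groups lay far apart with little spread in either, and the log2 change was 0.81 ± 0.23 (limma adjusted p = 0.0359). Tpm2 rose from 18.7, 20.9 and 20.4 TPM to 30.4, 33.6 and 28.0 TPM, again with no overlap, by 0.59 ± 0.17 on the log2 scale (limma adjusted p = 0.0396). Tagln, at 21.8, 21.5 and 21.9 TPM in sham prednisone and 31.9, 35.5 and 24.2 TPM in MI prednisone, also did not overlap between groups, but its log2 change of 0.45 ± 0.25 was not called (limma adjusted p = 0.244). Cnn2, at 19.3, 18.1 and 20.7 TPM against 24.1, 27.2 and 20.7 TPM, was 0.29 ± 0.27 higher, also not called, and its groups were apart by less than the rounding shown. These 4 genes were the members with all infarcted hearts above all sham hearts, against 12.9% of all genes.

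The other 5 members differed by less than their standard errors. Acta2 was 42.6, 46.1 and 43.3 TPM in sham prednisone and 49.6, 45.2 and 44.4 TPM in MI prednisone, a log2 change of 0.07 ± 0.17. Cnn1 (2.30, 2.31 and 2.33 TPM against 1.67, 5.39 and 1.54 TPM) changed by 0.09 ± 0.46, and Myh11 (5.30, 4.81 and 6.43 TPM against 4.56, 5.18 and 6.37 TPM) by -0.03 ± 0.22. Smtn (70.7, 59.8 and 68.2 TPM against 54.5, 81.3 and 60.3 TPM) changed by -0.04 ± 0.14 and Lmod1 (0.972, 0.971 and 1.32 TPM against 1.18, 1.25 and 1.59 TPM) by 0.17 ± 0.21. The library that stood apart is not in this comparison, and the 2 calls were also made after rescaling, where 10.8% of all genes were called higher. They were lost when any single sham prednisone library, or MI prednisone replicate 1 or 2, was left out. The values hardly moved in those fits: Myl9 ranged from 0.73 to 0.88 and Tpm2 from 0.52 to 0.62 on the log2 scale, and 0 members were called. Over all genes 1027 to 1219 were called in them, against 2213 in the main fit.

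Prednisone lowered Acta2 and Tagln in infarcted hearts and raised no member, on the TPM scale. The log2 change of Acta2 was -0.62 ± 0.17 in MI prednisone against MI vehicle (limma adjusted p = 0.0184), and all 3 treated hearts lay below all 3 vehicle hearts. That of Tagln was -0.83 ± 0.25 (limma adjusted p = 0.0229), but MI vehicle replicate 1, at 34.0 TPM, lay within the treated range. Of all genes 34.9% were called lower and 2.50% higher in this comparison, so 2 of 9 is a smaller share than the background. Acta2 was the only member whose groups did not overlap in that direction, against 42.6% of all genes. The members' median was -0.51, and that of all genes -0.41.

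Cnn2 (-0.63 ± 0.27), Cnn1 (-0.63 ± 0.46), Myh11 (-0.51 ± 0.22) and Lmod1 (-0.27 ± 0.21) had negative log2 changes that were not called. Tpm2 had a log2 change of -0.03 ± 0.17, Myl9 of 0.15 ± 0.23 and Smtn of 0.23 ± 0.14. Rescaling altered which genes were called. It gave 3 calls, all higher with prednisone, where 14.3% of all genes were called higher: Myl9 by 0.60 (limma adjusted p = 0.00855), Smtn by 0.68 (adjusted p = 0.0175) and Tpm2 by 0.42 (adjusted p = 0.0148). Acta2 at -0.16 and Tagln at -0.38 were then not called. The rescaled values show the same in single libraries. Myl9 was 45.3, 35.7 and 51.4 in MI vehicle and 66.4, 68.7 and 65.3 in MI prednisone, and Smtn 51.6, 50.1 and 31.7 against 61.2, 82.3 and 69.3, neither with overlap. On the TPM scale, leaving out MI vehicle replicate 2 or 3 ended the calls of both Acta2 and Tagln, leaving out MI prednisone replicate 2 ended that of Acta2, and leaving out MI prednisone replicate 1 or 3 ended that of Tagln. Without MI vehicle replicate 2 the log2 changes were -0.49 for Acta2 and -0.64 for Tagln, and Myh11 was called lower at -0.67. Without MI vehicle replicate 3 they were -0.50 and -0.70, and Myl9 was called higher at 0.47.

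**Figure D2:**
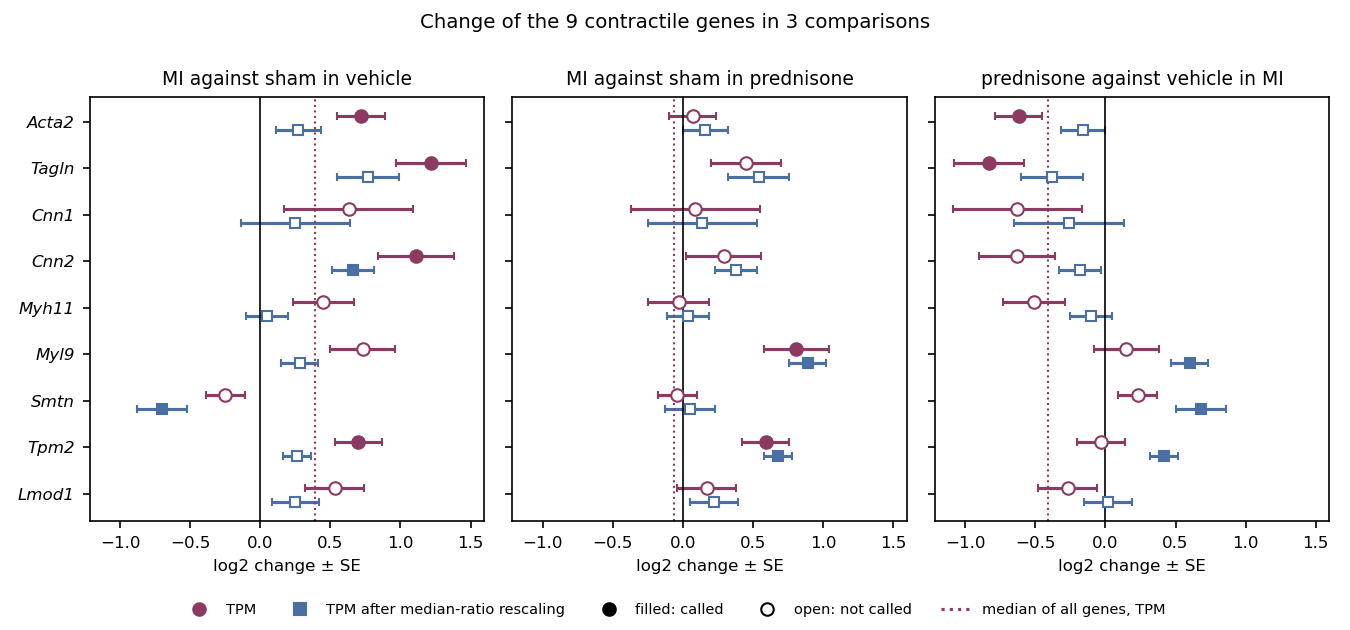
Log2 change ± SE (x axis) of each gene in 3 comparisons, from TPM (circles) and after median-ratio rescaling (squares). Filled symbols mark calls (limma, adjusted p under 0.05), and the dotted line is the median of all genes on the TPM scale (0.39, -0.06 and -0.41). Rescaling moves every member down in the first panel and up in the third, where Acta2 and Tagln lose their calls and Myl9, Smtn and Tpm2 gain them.

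In sham hearts no member was called with prednisone. In limma 0 of the 9 had an adjusted p under 0.05 and 0 an unadjusted p under 0.05, and the log2 changes ran from -0.08 to 0.19. The background was also small, with 0.114% of all genes called. Tagln was at 23.0 ± 3.82 TPM in sham vehicle and 21.8 ± 0.204 TPM in sham prednisone (SD, n = 3), and Cnn1 at 2.61 ± 1.08 and 2.31 ± 0.0158 TPM, so for both genes the sham prednisone libraries were the closer together. The difference between the drug effects in MI and in sham was called for 0 of 9 members, against 21.3% of all genes. Its 2 members with an unadjusted p under 0.05 were Acta2, at -0.64 ± 0.25 (limma adjusted p = 0.0828), and Tagln, at -0.77 ± 0.35 (limma adjusted p = 0.129). Leaving out MI vehicle replicate 1 gave 3 calls, with Acta2 at -0.88 (limma adjusted p = 0.00443) and Tagln at -1.10 (limma adjusted p = 0.00803). In that fit 4520 of the 13158 genes were called for the difference, against 2797 with all libraries. The drug effects in MI and in sham are thus not shown to differ for any member on this scale with all libraries. The comparisons share groups: MI vehicle enters both the infarct effect with vehicle and the drug effect in MI, so a high MI vehicle value raises the first and lowers the second.

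The deposited table gives single transcripts, and in Cnn2, Tpm2 and Smtn some of them moved apart from the sum for the gene. The authors' program divides reads that fit several transcripts of a gene between them, so transcript values rest on fewer distinguishing bases than gene values. Each transcript row was tested with the same limma model over the 27769 transcripts that passed the filter, of which 2.84% were called in MI against sham with vehicle, 22.3% in MI against sham with prednisone, 33.0% in prednisone against vehicle in MI and 18.7% for the difference between the drug effects. Of the members' 19 transcripts tested, 2, 4, 8 and 1 were called in these comparisons. This test was added after the data were seen, and its settings held no length correction.

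Cnn2 has 2 transcripts in the table. Cnn2-201 (2460 bases, 7 exons) spans chr10:79988584-79996062 on the plus strand of GRCm38. Cnn2-202 (926 bases, 6 exons) lacks the coding exon 5 at chr10:79993214-79993330 and ends earlier, at 79994684. The 117 bases of that exon, the coding stretch by which the 2 forms differ, read as follows in GENCODE M21.
Cnn2-201 exon 5: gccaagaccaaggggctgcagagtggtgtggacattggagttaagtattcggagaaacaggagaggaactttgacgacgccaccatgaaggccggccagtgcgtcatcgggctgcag

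Cnn2-202 stood at 1.70, 3.56 and 3.44 TPM in sham vehicle, 5.12, 3.29 and 4.61 TPM in sham prednisone and 5.64, 4.48 and 13.0 TPM in MI vehicle. In MI prednisone it was listed at 0 in replicates 1 and 2 and at 0.569 TPM in replicate 3. All 3 of these hearts lay below all 9 others. On the log2(TPM + 1) scale the change of the transcript was -2.78 ± 0.35 against MI vehicle (limma adjusted p = 0.000404) and -2.18 ± 0.35 against sham prednisone (limma adjusted p = 0.00173). The difference between the drug effects was -3.26 ± 0.50 (limma adjusted p = 0.00287). The first of these was called in 13 of 13 settings, including rescaling and each library left out, at an adjusted p of at most 0.0105. Its size depends on the pseudocount, since 2 libraries were listed at 0: with a pseudocount of 0.1 it was -5.22. Cnn2-201 over the same hearts was at 19.6, 28.0 and 50.6 TPM in MI vehicle and 24.1, 27.2 and 20.2 TPM in MI prednisone, a log2 change of -0.35 ± 0.27 that was not called. The share of Cnn2-202 in the gene was 17.1%, 22.4% and 19.0% in the first 3 groups and 0.790% in MI prednisone.

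Tpm2 has 6 transcripts in the table, and 3 of them reached 10% of the gene in a group. Tpm2-203 (1164 bases), Tpm2-202 (2098 bases) and Tpm2-201 (2175 bases) each have 9 exons on the minus strand. Tpm2-201 and Tpm2-202 share a last coding exon that Tpm2-203 lacks. They differ from each other in exon 6, which is chr4:43519003-43519078 in Tpm2-201, as in Tpm2-203, and chr4:43518644-43518719 in Tpm2-202. Alternative last exons give tropomyosins different C-termini, the end that overlaps the next molecule along the filament. The coding stretches of the last exon are 80 bases each, at chr4:43514782-43514861 for Tpm2-203 and chr4:43515924-43516003 for Tpm2-201 and Tpm2-202 (minus strand, GRCm38). They are shown because the coding sequence of Tpm2-203 ends there differently from that of Tpm2-201 and Tpm2-202. Outside the coding sequence, all of these transcripts reach 43514711 or 43514712, so the stretches may not tell whole transcripts apart. The stretches match at 33 positions, and the 47 that differ are in capitals.
Tpm2-203: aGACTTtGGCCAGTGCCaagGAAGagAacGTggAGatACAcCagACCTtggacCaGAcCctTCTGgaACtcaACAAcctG
Tpm2-201: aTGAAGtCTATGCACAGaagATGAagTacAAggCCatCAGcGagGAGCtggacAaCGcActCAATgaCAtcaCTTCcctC

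Tpm2-203, the main form, was at 14.9, 14.4 and 13.9 TPM in sham vehicle and 20.3, 29.2 and 35.7 TPM in MI vehicle, higher by 0.90 ± 0.18 on the log2 scale (limma adjusted p = 0.0309). That call was lost after rescaling, where the change was 0.46. Its log2 change with prednisone in MI, -0.28 ± 0.18, was not called. Tpm2-201 behaved differently. It was listed at 0.560, 1.38e-05 and 0.294 TPM in sham vehicle, and measured 1.35, 0.795 and 0.924 TPM in sham prednisone, 0.343, 0.625 and 1.15 TPM in MI vehicle, and 4.46, 2.45 and 3.10 TPM in MI prednisone. The MI prednisone hearts lay above all 9 others. The transcript was 1.35 ± 0.26 higher than in MI vehicle (limma adjusted p = 0.00354), which was called in 13 of 13 settings, and 1.08 ± 0.26 higher than in sham prednisone (limma adjusted p = 0.0131), called in 10 of 13. The difference between the drug effects, 0.68 ± 0.37, was not called (limma adjusted p = 0.216). Its share of Tpm2 was 10.9% in MI prednisone and between 1.50% and 5.12% in the other groups. Tpm2-202 measured 2.69, 5.95 and 1.82 TPM in sham vehicle, 2.68, 2.16 and 3.33 TPM in sham prednisone, 2.96, 2.20 and 2.30 TPM in MI vehicle, and 2.90, 4.56 and 4.35 TPM in MI prednisone. It held more of the gene than Tpm2-201 in every group, from 7.78% to 18.4%, and its log2 change with prednisone in MI, 0.49 ± 0.30, was not called (limma adjusted p = 0.224). The value of Tpm2-201 rests on the authors' division of shared reads: of its 2145 windows of 31 bases, 0 are absent from the other Tpm2 transcripts, against 55 of 2068 for Tpm2-202 and 131 of 1134 for Tpm2-203. The sum of the 2 forms with the shared last exon does not need that division between them, but still rests on the division with Tpm2-203. It was 3.25, 5.95 and 2.12 TPM in sham vehicle, 4.04, 2.95 and 4.25 TPM in sham prednisone, 3.31, 2.83 and 3.45 TPM in MI vehicle, and 7.36, 7.01 and 7.45 TPM in MI prednisone. The 3 MI prednisone hearts were above all 9 others in this sum as well, which made up 23.7% of Tpm2 there and 9.98% in MI vehicle.

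Smtn has 10 transcripts in the table, of which 4 reached 10% of the gene in a group. Smtn-202 (3335 bases, 21 exons) and Smtn-203 (3117 bases, 20 exons) are long forms, and Smtn-201 (1747 bases, 9 exons) is a short form that starts at an internal exon. The smoothelin gene is known to make a short form in visceral and a long form in vascular smooth muscle. Smtn-206 (625 bases, 3 exons) has no coding sequence in the annotation. It held 24.7% of Smtn in sham vehicle, 24.4% in sham prednisone, 14.9% in MI vehicle and 28.0% in MI prednisone. The short form took 54.0% of Smtn in sham vehicle, 54.2% in sham prednisone, 48.1% in MI vehicle and 52.7% in MI prednisone. With infarction in vehicle none of the 4 was called. The log2 changes were -0.40 ± 0.13 for Smtn-201, -0.93 ± 0.28 for Smtn-206, 0.60 ± 0.18 for Smtn-202 and 0.27 ± 0.26 for Smtn-203. After rescaling they were -0.84, -1.32, 0.19 and -0.12, also not called. Smtn-202 went from 5.90, 9.33 and 7.97 TPM in sham vehicle to 12.8, 10.0 and 13.8 TPM in MI vehicle. Smtn-201 measured 26.6, 28.6 and 23.9 TPM in MI vehicle and 31.5, 38.7 and 33.2 TPM in MI prednisone, with no overlap, a log2 rise of 0.37 ± 0.13 (limma adjusted p = 0.0470) that was called in 3 of 13 settings. Smtn-206 was at 8.92, 9.37 and 6.18 TPM in MI vehicle and 11.4, 29.1 and 14.4 TPM in MI prednisone, higher by 0.99 ± 0.28 (limma adjusted p = 0.0217). The long form Smtn-203 moved the other way, from 4.94, 8.49 and 7.55 TPM to 3.52, 3.97 and 1.60 TPM, a log2 change of -1.02 ± 0.26 (limma adjusted p = 0.0132) and called in 11 of 13 settings. Smtn-202, at 12.8, 10.0 and 13.8 TPM against 8.05, 9.15 and 11.1 TPM, changed by -0.34 ± 0.18, which was not called. Of the long forms, 0 of the 3305 windows of 31 bases in Smtn-202 and 27 of the 3087 in Smtn-203 are absent from the other Smtn transcripts. For Cnn2-202 these are 28 of 896 windows.

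**Figure D3:**
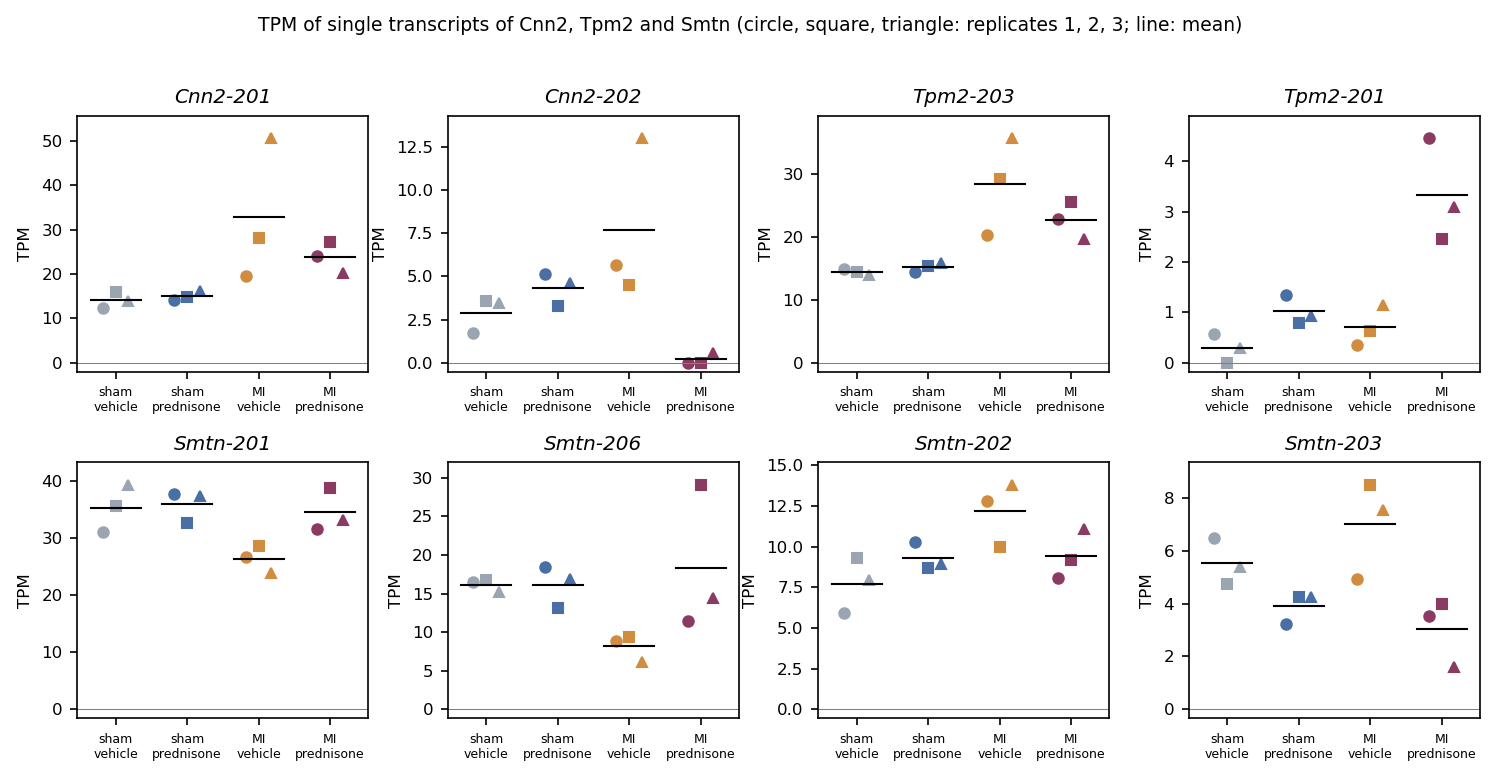
TPM (y axis) of 8 transcripts of Cnn2, Tpm2 and Smtn in the 12 libraries, with replicates 1, 2 and 3 as circles, squares and triangles and the group mean as a line. Cnn2-202 is at or near 0 and Tpm2-201 is highest in the 3 MI prednisone hearts, while Cnn2-201 lies between 12.4 and 50.6 TPM and Tpm2-203 between 13.9 and 35.7 TPM.

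Of the remaining transcripts, Tagln-201 held between 80.9% and 87.7% of Tagln in the 4 groups. It was called higher in MI vehicle than in sham vehicle (1.29 ± 0.28, limma adjusted p = 0.0374) and lower with prednisone in MI (-0.79 ± 0.28, limma adjusted p = 0.0475), the first in 3 and the second in 2 of 13 settings. Cnn1 was split between Cnn1-201 and shorter forms. Cnn1-205, which starts further downstream than Cnn1-201, was 1.50, 0.709 and 3.67 TPM in MI vehicle. In MI prednisone it was listed at 0 in 2 libraries and at 0.0727 TPM in replicate 2. Its log2 change was -1.41 ± 0.41 (limma adjusted p = 0.0240), called in 8 of 13 settings, and at these low levels its share of Cnn1 differed from 8.38% to 67.9% within sham vehicle alone. Myl9-201, with 93.2% to 97.4% of Myl9, repeated the gene's change in MI against sham with prednisone (0.80 ± 0.22). Acta2, Myh11 and Lmod1 have 1 transcript each in the table.

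Some reads cannot be assigned to these genes with certainty. Of the 31-base windows in the transcripts of Tagln, 62.2% also occur in transcripts of genes annotated on the opposite strand, Pcsk7 and Gm48529, and 12% of those of Smtn occur in Gm11946 and Gm11947. The libraries were stranded, but whether counting used the strand is not given in the sources used here, so reads from each pair may not be told apart. Pcsk7 itself was at 5.46 ± 0.624 TPM in sham vehicle and 7.26 ± 2.14 TPM in MI vehicle (SD, n = 3), with a log2 change of 0.33 that was not called. Acta2 shared 1.50% of its windows with other genes, among them Actg1, and the other members 1.18% or less. The paralogs nearest to the members were far more abundant in heart muscle in several families. Tpm1, the cardiac tropomyosin, was at 6003 ± 104 TPM in sham vehicle, and Lmod2, the cardiac leiomodin, at 289 ± 12.2 TPM. Acta1, skeletal alpha-actin and a gene of the stressed heart, had a log2 change of 2.02 with infarction in vehicle (limma adjusted p = 0.00526) and of -0.22 with prednisone in MI, which was not called. Cnn3, the acidic calponin, changed by 0.98 with infarction in vehicle and by -0.97 with prednisone in MI (limma adjusted p = 0.0176 and 0.00566).

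The other genes of the pathway were counted over whole lists, and those named are the called genes of a list with the largest changes. Of 19 tested further genes of the smooth muscle contractile apparatus, 7 were called higher and 1 lower in MI vehicle against sham vehicle, where 15.1% of all genes were called higher, and 8 were lower with prednisone in MI, where 34.9% were. After rescaling, 2 were higher and 1 lower with infarction, where 3.24% of all genes were called higher and 3.22% lower. With prednisone in MI, 3 were then higher and 4 lower, where 13.8% of all genes were called lower. Cald1, caldesmon, an actin-binding brake on myosin, had the largest change in both: it went from 20.9 ± 3.93 TPM in sham vehicle to 43.2 ± 7.39 TPM in MI vehicle and 14.3 ± 1.82 TPM in MI prednisone (SD, n = 3). Its log2 changes were 1.01 (limma adjusted p = 0.00922) and -1.52 (limma adjusted p = 0.000561), and after rescaling 0.57 and -1.07, both still called. Cacna1c, the channel that lets calcium into muscle cells, changed by -0.40 with infarction in vehicle. In MI against sham with prednisone, 1 gene of the list was called higher, Flna, an actin cross-linker, by 0.94, and 7 were lower, with Ppp1r12b, a targeting subunit of myosin phosphatase, at -1.36 (limma adjusted p = 0.00185). After rescaling these counts were 2 and 5, where 14.6% of all genes were called lower. The list's median with infarction in vehicle was 0.33, below that of all genes.

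Of 13 measured regulators, SRF and its myocardin-family and RhoA partners, 3 were called higher with infarction in vehicle and 7 lower with prednisone in MI. Of all genes, 15.1% and 34.9% were called in these directions. After rescaling the counts were 0 and 3 regulators, against 3.24% and 13.8% of all genes. Csrp2, a cofactor of SRF in smooth muscle, was 1.14 higher with infarction in vehicle (limma adjusted p = 0.0211), and 0.69 higher after rescaling, where it was not called (limma adjusted p = 0.0623). Tead1, which binds the CATTCC element of muscle genes, changed by -1.38 with prednisone in MI (limma adjusted p = 0.00194) and by -0.94 after rescaling. Myocd, myocardin itself, went from 13.8 ± 1.36 TPM in sham prednisone to 3.71 ± 1.62 TPM in MI prednisone, a log2 change of -1.70 (limma adjusted p = 0.00124) that was -1.63 after rescaling. In that same comparison no contractile member was called lower and 2 were higher. Whether the members' changes depend on Myocd was not tested. The list's median log2 changes were 0.35 with infarction in vehicle, -0.33 with infarction under prednisone and -0.58 with prednisone in MI.

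Markers of cells that express some of these genes moved as well, and their part in the members' changes was not tested. Over all genes, 15.1% were called higher with infarction in vehicle and 34.9% lower with prednisone in MI, and 3.24% and 13.8% after rescaling. Of 15 tested genes of activated fibroblasts, 14 were called higher with infarction in vehicle and 12 lower with prednisone in MI, and 11 and 6 after rescaling. Their median log2 changes were 1.91 and -1.18, larger than the members' 0.70 and -0.51, and 1.46 and -0.76 after rescaling. Their summed TPM was 166 to 235 in sham vehicle, 221 to 244 in sham prednisone, 535 to 1080 in MI vehicle and 246 to 431 in MI prednisone. Postn, periostin, remained 1.87 higher in MI than in sham under prednisone (limma adjusted p = 0.00407). Macrophage markers, of interest beside Cnn2, were called higher in 9 of 10 with infarction in vehicle and lower in 8 of 10 with prednisone in MI (5 and 4 after rescaling), at a summed 332 to 466 TPM in sham vehicle, 372 to 500 in sham prednisone, 726 to 1558 in MI vehicle and 366 to 652 in MI prednisone. No marker of either list was at 0 in a whole group.

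As a background for the marker counts below, 2.73% of all genes were called higher and 14.1% lower with infarction under prednisone. The shares higher were 15.1% with infarction in vehicle and 2.50% with prednisone in MI, where 34.9% were lower. After rescaling they were 10.8% higher and 14.6% lower with infarction under prednisone, and 3.24% higher with infarction in vehicle. With prednisone in MI, 14.3% were then higher and 13.8% lower. Few vascular smooth muscle markers were called. Of the 6 tested, 1 was higher with infarction in vehicle (Mustn1, by 0.73, limma adjusted p = 0.0302), 1 was higher with infarction under prednisone (Rasl12, by 0.98, limma adjusted p = 0.0242) and 1 was lower with prednisone in MI (Itga8, at -1.14, limma adjusted p = 0.00530). Itga8 was low, at 2.95 ± 1.48 TPM in MI vehicle and 0.718 ± 0.146 TPM in MI prednisone (SD, n = 3). After rescaling, Mustn1 was not called (limma adjusted p = 0.0621), 2 were higher with infarction under prednisone, and 1 was higher and 1 lower with prednisone in MI. Their summed TPM was 16.6 to 19.0 in the sham groups, 23.9, 25.0 and 48.6 in MI vehicle, and 24.3, 31.8 and 26.8 in MI prednisone, so all infarcted hearts lay above all sham hearts. Pericyte markers summed to 198 to 218 TPM in sham vehicle, 225 to 228 in sham prednisone, 219 to 236 in MI vehicle and 187 to 243 in MI prednisone. Of 10, 3 were higher with infarction in vehicle, 4 higher and 1 lower with infarction under prednisone, and 3 higher and 2 lower with prednisone in MI, among them Cspg4, at 0.54, and Notch3, at -0.75. After rescaling, 0 were called with infarction in vehicle, 3 were higher and 1 lower with infarction under prednisone, and 3 were higher and 0 lower with prednisone in MI. Atrial markers summed to 907 to 2810 TPM in sham, 2888 to 4217 in MI vehicle and 4470 to 6325 in MI prednisone. With infarction in vehicle 1 of 8 was called, Nppa. It went from 904 ± 428 TPM in sham vehicle to 2706 ± 600 TPM in MI vehicle (SD, n = 3). The list's median log2 change in that comparison was -0.39, against 0.39 over all genes. With prednisone in MI, 4 of 8 were called higher, also after rescaling, led by Myl7 at 2.04. Mesothelial markers ranged from 31.8 to 233 TPM, with the highest sum in MI vehicle replicate 3.

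Of all genes, 15.1% were called higher with infarction in vehicle. In that comparison endothelial markers were called higher in 6 of 10, and resting fibroblast markers in 7 of 10, with medians of 0.49 and 0.78. After rescaling, 0 of either list were called, with medians of 0.06 and 0.34. With prednisone in MI, 1 endothelial marker was called higher and 4 lower, and 5 resting fibroblast markers were lower, against 2.50% of all genes higher and 34.9% lower. After rescaling, 3 endothelial markers were higher and 0 lower, and 3 resting fibroblast markers were lower. Cardiomyocyte markers were called lower in 2 of 10 with infarction in vehicle, and with prednisone in MI 4 were higher and 1 lower, against 2 lower, and 6 higher and 0 lower, after rescaling. Of all genes, 0.904% were called lower with infarction in vehicle, and 3.22% after rescaling. Of 6 skeletal muscle markers tested, Acta1 was the only call with infarction in either treatment, and Ckm was 0.38 higher with prednisone in MI.

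**Figure D4:**
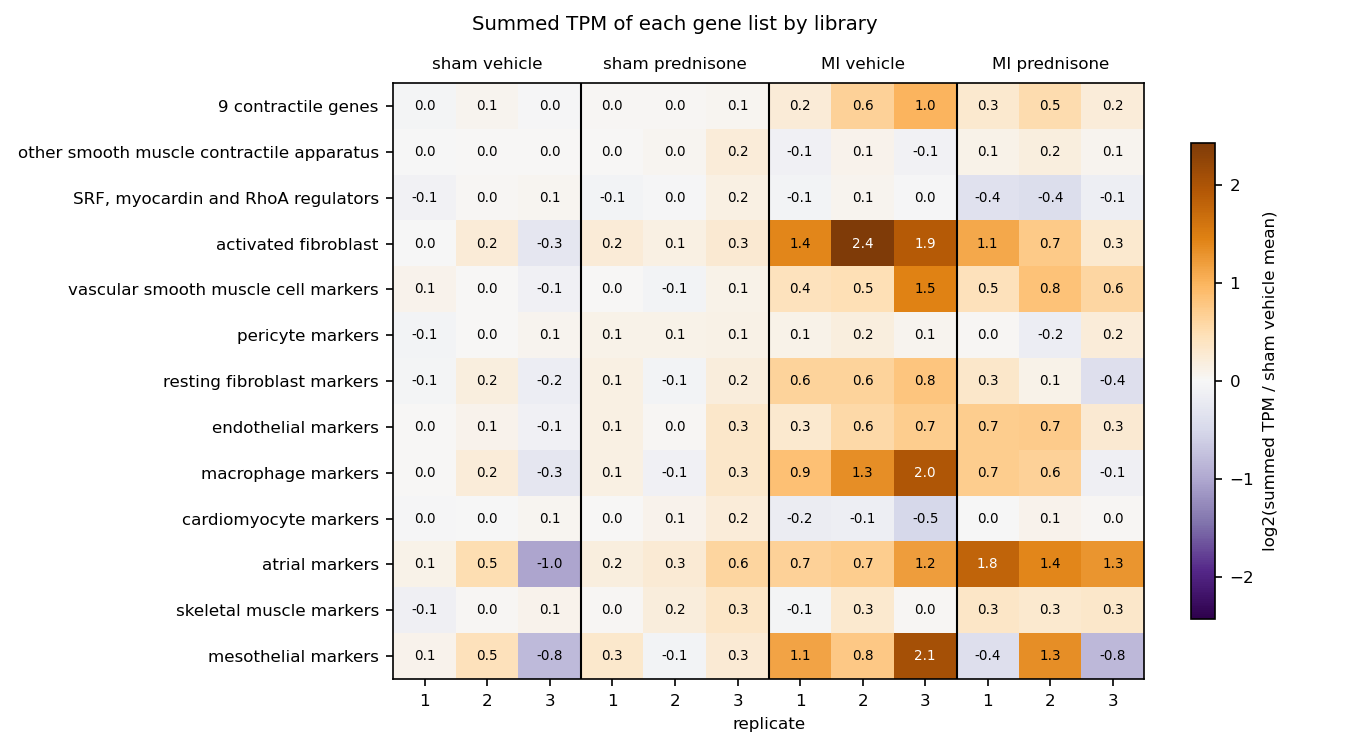
Summed TPM of the 9 contractile genes and of each gene list (rows) in the 12 libraries (columns), as log2 of the ratio to the sham vehicle mean. The contractile genes reach 0.23, 0.65 and 1.00 in MI vehicle and 0.29, 0.52 and 0.22 in MI prednisone, while activated fibroblast genes reach 2.43 in MI vehicle.

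Across the 12 libraries the members did not all follow each other. The Pearson r of a gene with the mean of the other 8, on standardised log2(TPM + 1), was 0.93 for Cnn2, 0.83 for Tpm2, 0.81 for Tagln, 0.80 for Lmod1 and between 0.70 and 0.76 for Acta2, Cnn1, Myh11 and Myl9, and it was -0.44 for Smtn. These are descriptions, and the libraries share groups and the shift of 1 library. Among the genes outside the 9 with the profile most like the members' mean, of 8109 genes with at least 5 TPM, were Csrp1, Gpr108, Slc3a2 and Gtf2f1, each at r = 0.98. After rescaling they ranked 96, 1024, 44 and 17, and the most similar genes were Chmp5, Srgn, Anxa5 and Irf7 (0.93 to 0.95). Relative to the group means, the nearest genes were Actn4, Katna1, Kdm1a, Rnf126 and Stxbp2 (0.99).

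RefSeq promoter sequences (GRCm38.p6, from 250 bases before to 50 after the start) matched 7 of the 9 members, Acta2, Cnn1, Cnn2, Lmod1, Myl9, Smtn and Tpm2, and not Tagln or Myh11. They were searched on both strands for the CArG box, which is CC, then 6 bases that are A or T, then GG, for the same box with 1 of the 6 central bases replaced, and for CATTCC. The full box was found in Cnn2 and Myl9 and in 1.63% of 32851 promoters of the same length. The box with 1 replaced base, counted apart from full boxes, was found in Acta2 and Myl9 and in 8.50% of all promoters. CATTCC was found in Acta2, Lmod1 and Smtn and in 14.7%. The promoters with a box, full or with 1 replaced base, are shown because they carry the element through which this gene group is known to be regulated. Capitals mark the matches. They lie at chr19:34255324-34255623 on the minus strand for Acta2, chr10:79988350-79988649 on the plus strand for Cnn2 and chr2:156775214-156775513 on the plus strand for Myl9.
Acta2: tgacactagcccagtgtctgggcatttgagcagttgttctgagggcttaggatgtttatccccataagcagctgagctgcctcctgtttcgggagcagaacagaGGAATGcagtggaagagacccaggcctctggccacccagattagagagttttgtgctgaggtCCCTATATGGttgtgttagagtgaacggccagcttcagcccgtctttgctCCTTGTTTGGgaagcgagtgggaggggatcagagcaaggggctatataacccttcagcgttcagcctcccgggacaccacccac
Cnn2: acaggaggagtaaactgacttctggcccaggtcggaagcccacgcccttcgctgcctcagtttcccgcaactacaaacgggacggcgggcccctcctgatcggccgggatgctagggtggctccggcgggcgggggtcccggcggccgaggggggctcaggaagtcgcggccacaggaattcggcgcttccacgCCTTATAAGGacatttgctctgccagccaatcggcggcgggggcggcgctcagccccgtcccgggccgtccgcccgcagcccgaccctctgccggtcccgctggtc
Myl9: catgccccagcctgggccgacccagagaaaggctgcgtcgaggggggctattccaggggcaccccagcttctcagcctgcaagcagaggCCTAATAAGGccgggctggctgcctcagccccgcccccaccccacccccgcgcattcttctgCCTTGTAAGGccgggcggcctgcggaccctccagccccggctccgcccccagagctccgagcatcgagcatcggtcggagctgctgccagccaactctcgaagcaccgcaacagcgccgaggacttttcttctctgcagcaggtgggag

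The full box of Cnn2, CCTTATAAGG, begins 56 bases before the start, and that of Myl9, CCTAATAAGG, 161 bases before it. The boxes of Acta2 with a replaced base, CCCTATATGG and CCTTGTTTGG, begin 84 and 34 bases before its start, and that of Myl9, CCTTGTAAGG, 99 bases before. Acta2 also holds GGAATG, which is CATTCC on the other strand, 146 bases before its start. Cnn2 and Acta2 were called higher with infarction in vehicle and Myl9 with infarction under prednisone. The log2 change of Myl9 was much the same in both comparisons, 0.73 with vehicle (limma adjusted p = 0.0522) and 0.81 under prednisone. Tpm2, called in both comparisons, had no match to any of the 3 motifs in this window. Whether these elements have a part in the changes was not tested.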

How the data were processed

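RNA of mouse myocardium was compared in 12 libraries, 3 per group, assigned from the sample titles. The values the authors deposited are TPM per transcript (105129 rows, each library summing to 1000000). The submitters' processing notes name Trimmomatic, HISAT2, kallisto and mm10, with no role, version or annotation release. Depth is unknown, so no counting error could be given, and precision rests on 3 libraries a group. Strand use in counting is not given in the sources used here.

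Gene values are sums over transcript rows with 1 symbol. The 13158 genes at 1 TPM or more in 3 or more of the 12 libraries were tested on log2(TPM + 1), a scale that understates changes of low genes, with limma 3.58.1 in R 4.3.3 (lmFit, eBayes with trend, 4 group means, a shared spread) and Benjamini-Hochberg adjustment. Two-sided exact permutation tests of 3 against 3 cannot go below 0.1 and were not used. The model was tested on simulated data. Alternatives were median-ratio rescaling, a pseudocount of 0.1, no filter or one of 5 TPM, no trend, only the 2 groups compared, a replicate block, a transcript-length correction (loess span 0.5), the most abundant transcript, removal of mitochondrial, copy and globin genes, and each library left out. Rescaling without MI vehicle replicate 3, the test of single transcripts and the rescaled likeness of profiles were added after seeing the data. Positions, transcript lengths and exons are from GENCODE M21, which held 98.6% of the table's transcript IDs and 94.7% in the same version, and promoters from RefSeq (GRCm38.p6).

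Named genes are all members, the called gene of each list with the largest change per direction, the 5 genes most alike in profile (1 is not reported here), and transcripts with at least 10% of a member. Members and lists were chosen with earlier results of these data known. Of the regulator and fibroblast lists, Mrtfa, Mrtfb and Ccn2 were matched under their older symbols.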

Additional observations from a re-analysis of the deposited data

Results flagged for a closer look

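For the Cnn2 transcript that lacks exon 5, Cnn2-202, the effect of prednisone differed between infarcted and sham hearts in a test of the difference itself. The difference between the drug effects was -3.26 ± 0.50 on the log2(TPM + 1) scale (limma adjusted p = 0.00287, n = 3 per group). It was called in 6 of 6 settings, with a limma adjusted p of at most 0.0121. These settings kept every library, so the dependence of the difference on single libraries was not tested. They also held no length correction, so its dependence on transcript length was not tested. For genes, 2797 were called for the difference in the main fit, 1141 after rescaling and 264 of 13124 with length correction. Of all transcripts tested, 18.7% were called for this difference, and the test was added after the data were seen. Of the 896 windows of 31 bases in Cnn2-202, 28 are absent from the other Cnn2 transcript. In sham hearts the change with prednisone was 0.48 ± 0.35, which was not called, and in MI it was -2.78 ± 0.35. The values are 1.70, 3.56 and 3.44 TPM in sham vehicle, 5.12, 3.29 and 4.61 TPM in sham prednisone, 5.64, 4.48 and 13.0 TPM in MI vehicle, and listed 0, 0 and 0.569 TPM in MI prednisone. With a pseudocount of 0.1 the difference was -5.83.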

How the results depend on the processing

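The count of members called was 4 with infarction in vehicle. It was 5 with a filter of 5 TPM, which 7 members passed, and 4 without mitochondrial genes, their copies and globins, with Smtn in place of Acta2. It was 2 after rescaling, 2 with no filter, 0 with only the 2 groups, 2 with length correction, 0 with length correction and the replicate block, 1 after rescaling without MI vehicle replicate 3, and 0 to 5 with single libraries left out. With infarction under prednisone it was 2, against 0 with no filter, 0 with the replicate block, 1 with the most abundant transcript and 0 to 2 with libraries left out. For prednisone in MI it was 2, against 3 with the most abundant transcript (Smtn added, higher), 3 without mitochondrial genes, their copies and globins (Cnn2 added, lower), 0 with only the 2 groups, 1 with length correction, 0 with length correction and the replicate block and 1 to 3 with libraries left out. Rescaling gave 3 calls, all in the other direction. For the difference between the drug effects it was 0, against 1 after rescaling without MI vehicle replicate 3 and 0 to 3 with libraries left out. The cause of these changes was not tested. Samples with the same number did not deviate together (r from -0.58 to 0.14), so the numbers do not pair them, and the replicate block changed no other count of members called. All genes called with infarction in vehicle were 2100 in the main fit and 850 after rescaling, and for prednisone in MI 4917 and 3706. With only the 2 groups they were 2 and 808, and with length correction and the replicate block 76 and 1457.

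Signs turned only in changes that had not been called. With infarction in vehicle after rescaling without MI vehicle replicate 3, Cnn1 was -0.09 and Myh11 -0.02. With infarction under prednisone, Acta2 was -0.01 without mitochondrial genes, their copies and globins, Cnn1 was 0.00 with length correction, with or without the replicate block, and -0.35 to 0.32 with libraries left out. Myh11 was 0.04 after rescaling, 0.40 with length correction, with or without the block and -0.14 to 0.06 with libraries left out. Smtn was 0.05 after rescaling and -0.20 to 0.08 with libraries left out. With prednisone in MI, Cnn1 was 0.00 for its most abundant transcript and 0.08 after rescaling without MI vehicle replicate 3, and Myh11 was 0.18 with length correction, with or without the block. Myl9 was -0.07 to 0.47 with single libraries left out. Tpm2 was 0.42 after rescaling, 0.38 after rescaling without MI vehicle replicate 3, 0.21 with length correction, with or without the block, 0.05 without mitochondrial genes, and -0.23 to 0.14 with libraries left out. Lmod1 was 0.02 after rescaling, 0.08 after rescaling without MI vehicle replicate 3 and 0.32 with length correction, with or without the block.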
